A study of Homo sapiens with 6 samples.

Results

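The transcripts of 43 genes of homologous recombination, interstrand crosslink repair and the DNA damage checkpoint were followed in A2780 cells, a line derived from human ovarian cancer, after an intervention against GPT2. They were given by gene symbol, under a rule that uses no measured value, as genes that matter for the response to platinum drugs, and all 43 symbols matched a row among 60564 genes of the table. Poly(A) RNA was sequenced in 3 libraries labelled GPT2si and 3 labelled GPT2sinc, with no drug, dose or time named in the labels. Both groups are the same line, and the labels give no other allele or agent. Neither abbreviation is spelled out there.

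Homologous recombination copies an intact sister chromatid to mend a broken chromosome or a collapsed replication fork. The MRN complex senses the end and starts its resection, BRCA1 and BRCA2 with their partners prepare the resected end for pairing, and further mediators and the RAD54 proteins help the strand exchange. Platinum drugs crosslink the strands of DNA. The Fanconi anemia core complex then marks FANCD2 and FANCI with ubiquitin, nucleases unhook the crosslink, and recombination restores the fork. Loss of some of these genes makes ovarian cancer cells sensitive to platinum and to PARP inhibitors, and many of the set are transcribed more in cycling cells.

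GPT2 encodes the mitochondrial alanine aminotransferase. It stood at 93.8, 94.3 and 96.9 CPM (counts scaled to library size with TMM factors) in GPT2si 1 to 3 and at 236, 230 and 219 CPM in GPT2sinc 1 to 3, so it fell to 41.7% of the GPT2sinc level (log2 fold change -1.26, SE 0.08; adjusted p = 0.000393, edgeR). Total counts were 41931162 to 50882329 per library, of which the 43 repair genes took 0.106% to 0.112%. A floor of 3 counts equals 0.0597 to 0.0770 CPM, which covers counting error only, for reads that include PCR copies. Of 9 markers of Mullerian or ovarian surface epithelium, KRT8 and KRT18 were at 31.7 and 24.7 CPM in GPT2sinc and at 38.4 and 31.2 CPM in GPT2si, and EPCAM at 1.94 and 1.61 CPM. The list summed to 57.7 to 60.4 CPM in GPT2sinc and 64.8 to 80.8 CPM in GPT2si, without overlap, and KRT8 and KRT18 were above in each GPT2si library (log2 fold changes 0.27 and 0.33; edgeR adjusted p = 0.199 and 0.166). WT1 and KRT7 had 0 counts in all 6 libraries, and PAX8 and MUC16 were at 0.176 and 0.0230 CPM in GPT2sinc and at 0.195 and 0 CPM in GPT2si. The leukocyte list summed to 4.14 to 5.32 CPM in GPT2sinc and 4.57 to 8.36 in GPT2si, with CD3E at 0, and the endothelial list to at most 0.615 CPM, with CDH5 at 0. The fibroblast list, mostly COL3A1, summed to 3020 to 3170 CPM in GPT2sinc and 2990 to 3210 CPM in GPT2si. The defining Mullerian markers were therefore at or near 0, and the part of the marker levels in the results was not tested.

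None of the 43 repair genes passed the test between the groups. These are bulk RNA levels, in which fewer cells expressing a gene and less RNA per cell cannot be told apart. At an adjusted p under 0.05 (edgeR quasi-likelihood test with Benjamini-Hochberg adjustment over 17006 genes) 0 were higher and 0 were lower, where 1.42% of all genes tested passed (0.576% higher and 0.841% lower). An unadjusted p under 0.05 was reached by 7 (16.3%), beside 19.6% of all genes. Of these 4 were higher with GPT2si (10.3% of all genes) and 3 lower (9.27% of all genes). The median log2 fold change was -0.01 for the 43 and -0.01 for all genes tested, with 22 negative and 21 positive among the 43 (52.0% of all genes were negative). The GPT2si and GPT2sinc libraries did not overlap for 9 of the 43 (20.9%), against 28.2% of all genes. In 6 the GPT2si libraries were higher (14.9% of all genes) and in 3 lower (13.2%). By each of these counts the repair genes were near or below the share over the whole table. DESeq2 called 2 of the 42 that it gave an adjusted p (4.76%), with 7.77% called over all genes: FANCE lower (adjusted p = 0.00975) and CHEK2 higher (adjusted p = 0.0410).

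The 95% intervals of the fold changes give a range for the size of a missed change. They are taken gene by gene, with no adjustment for the number of genes. They cover only the variation among these libraries in the main fit. For 40 of the 43 genes the interval lay within a 2-fold change either way, and for 24 of these within 1.5-fold. The 3 genes whose interval reached a 2-fold fall were BRCA2, ATM and FANCM. BRCA2 and FANCM are 2 of the 3 genes under 2 CPM in at least 1 group. The plot of fold changes shows how the width differs: FANCE and CHEK2 had SEs of 0.08 and 0.09, and FANCM and BRCA2 of 0.36 and 0.35.

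**Figure D1:**
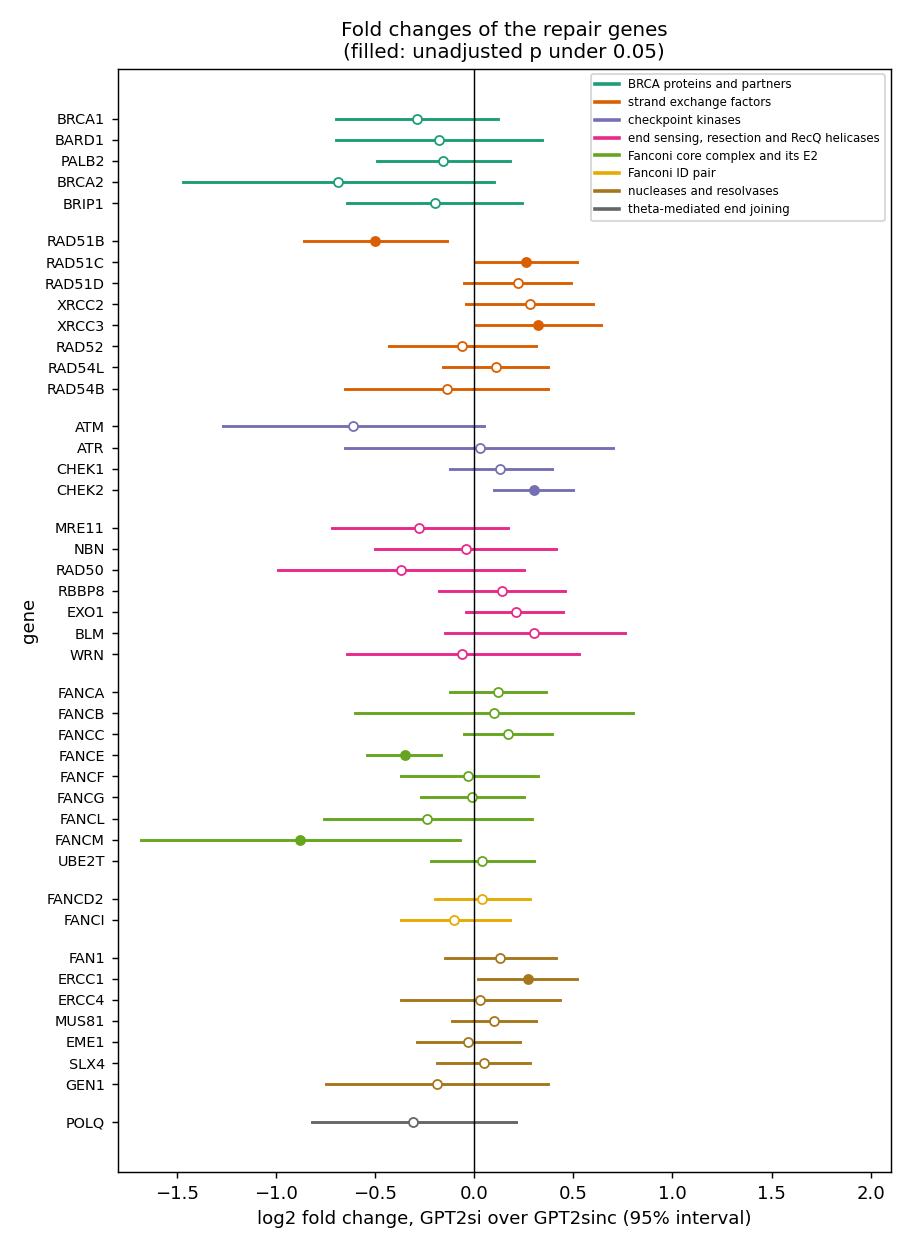
Log2 fold change (x axis) of each of the 43 repair genes (y axis), GPT2si over GPT2sinc, from edgeR with 3 libraries per group; circles are estimates, lines are 95% intervals, colours are role classes and filled circles mark an unadjusted p under 0.05. Only 7 circles are filled, 4 to the right and 3 to the left of 0, and the intervals of BRCA2, ATM and FANCM are the ones that reach past -1.

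The members differed far more from each other in level than between the groups. Per kilobase of annotated exon, ERCC1, the partner of the nuclease XPF, was the most abundant at 39.3 CPM per kb, followed by the Fanconi core genes FANCE (26.8) and FANCG (25.8) and by UBE2T (19.3), the ubiquitin-conjugating enzyme of the pathway. Over the 6 libraries FANCE ran from 22.7 to 31.1 and FANCG from 23.2 to 30.5 CPM per kb, so the ranges of these neighbours overlapped. Such ranges pool both groups and do not compare genes within a library. ERCC1 (32.8 to 50.2) and UBE2T (16.9 to 21.6) did not overlap their neighbours, and in all 38 of the 42 neighbouring pairs in the order overlapped. RAD54L, CHEK2, MUS81 and FANCI followed at 8.14 to 8.84 CPM per kb. This order depends on the length used. The annotated exons of FANCC cover 12.8 kb and its longest transcript 4.59 kb, and those of RAD51B 7.48 and 2.60 kb. The levels of RAD54L and MUS81 may also hold reads of overlapping genes, which are given below. BRCA1 was at 1.53, BARD1 at 1.35 and PALB2 at 1.23 CPM per kb. At the low end lay ATR (0.576), GEN1 (0.358), FANCB (0.230), FANCM (0.155) and BRCA2 (0.130). BRCA2 had 28 to 115 counts per library and FANCM 37 to 126, and their fold changes had the largest SEs of the set.

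BRCA1 and its partners all had negative fold changes that did not pass. BRCA2, the tumour suppressor that acts on resected DNA, was at 1.01, 0.718 and 1.93 CPM in GPT2si 1 to 3 and at 2.51, 1.81 and 1.61 CPM in GPT2sinc 1 to 3. GPT2si 3 lay inside the GPT2sinc range and the groups overlapped (log2 fold change -0.69, SE 0.35, 95% interval -1.47 to 0.10; edgeR adjusted p = 0.309). Leaving out 1 library moved it to -0.45 (without GPT2si 2) or to -1.18 (without GPT2si 3). BRCA1, the ubiquitin ligase that promotes resection, was at 13.4, 9.26 and 15.2 CPM against 17.2, 15.3 and 13.7 CPM; these values are given beyond the naming rule, after they were seen. GPT2si 2 was the lowest library and GPT2si 3 lay close to GPT2sinc 2 (-0.29, SE 0.18, interval -0.70 to 0.12). The value was -0.12 without GPT2si 2 and -0.44 without GPT2si 3. BARD1, the obligate partner of BRCA1, PALB2, the bridge between BRCA1 and BRCA2, and the helicase gene BRIP1 lay between -0.16 and -0.20, with groups that overlapped. Adjusted p for the 5 genes ran from 0.309 to 0.704 (edgeR).

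The strand exchange factors differed in direction from gene to gene. RAD51B, RAD51C, RAD51D and XRCC2 form the BCDX2 complex, and RAD51C also pairs with XRCC3. RAD51B (ENSG00000182185; chromosome 14, 67819779 to 68730218, plus strand of GRCh38) was at 7.74, 5.34 and 7.16 CPM in GPT2si 1 to 3 and at 9.70, 9.30 and 9.74 CPM in GPT2sinc 1 to 3. Each GPT2si library lay below each GPT2sinc library, and GPT2si 2 was the lowest (log2 fold change -0.50, SE 0.16; edgeR adjusted p = 0.137). RAD51C (ENSG00000108384; chromosome 17, 58692573 to 58735611, plus strand) was at 20.6, 17.4 and 19.4 CPM against 16.2, 16.5 and 15.2 CPM, with all GPT2si libraries above (0.26, SE 0.11; edgeR adjusted p = 0.239). The log2 ratio of RAD51C to RAD51B within a library was 1.41, 1.71 and 1.44 in GPT2si 1 to 3 and 0.74, 0.82 and 0.64 in GPT2sinc 1 to 3, so that the groups did not overlap. That the ratios did not overlap was fixed, since RAD51C was higher and RAD51B lower in every GPT2si library. This ratio was formed after the values were seen and was not tested.

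XRCC3 was at 28.5, 39.6 and 30.8 CPM with GPT2si and at 23.3, 28.6 and 27.0 CPM with GPT2sinc (0.32, SE 0.14; edgeR adjusted p = 0.246). GPT2si 1 lay just below GPT2sinc 2, so the groups overlapped, and GPT2si 2 stood highest. Without that library the log2 fold change was 0.16. Of its exon bases 76.7% also lie in exons of KLC1 (mean 3308 counts) on the opposite strand. The library kit kept strand, but no source used here states whether the counting did. Reads of XRCC3 may therefore not be told apart from those of KLC1. RAD51D and XRCC2 were at 0.22 and 0.28 (SE 0.12 and 0.14). RAD54L, a motor protein of strand exchange, was at 0.11 (SE 0.12), its paralog RAD54B at -0.14 (SE 0.23), and the annealing factor RAD52 at -0.06 (SE 0.17). For this class of 8 genes the median was 0.16, with 2 of them higher and 1 lower before adjustment.

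**Figure D2:**
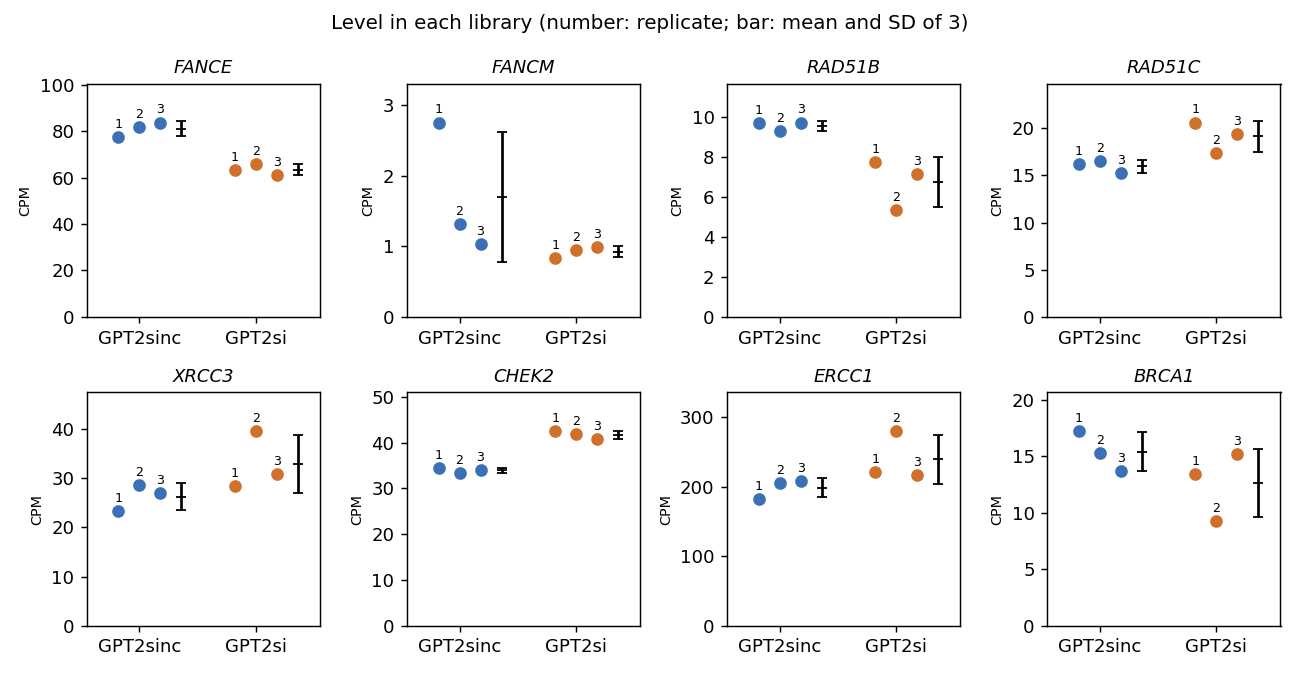
CPM (y axis, from 0) of 8 repair genes in each library, GPT2sinc in blue and GPT2si in orange, with replicate numbers above the points and the mean and SD of 3 libraries as a bar. FANCE, FANCM and RAD51B were lower and RAD51C, CHEK2 and ERCC1 higher in every GPT2si library; for XRCC3 and BRCA1 the groups overlap, and GPT2si 2 is the extreme library of RAD51B, XRCC3, ERCC1 and BRCA1.

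Among the checkpoint kinases, CHEK2 and ATM leaned opposite ways. CHEK2 (ENSG00000183765; chromosome 22, 28687743 to 28742422, minus strand), the effector kinase downstream of ATM, was at 42.5, 41.9 and 40.7 CPM in GPT2si 1 to 3 and at 34.4, 33.3 and 34.1 CPM in GPT2sinc 1 to 3. All GPT2si libraries lay above, and the spread within a group was small (SD 0.918 and 0.562; log2 fold change 0.30, SE 0.09; edgeR adjusted p = 0.121). CHEK2 has 7 annotated pseudogene copies in the table, of which CHEK2P2 had 16 to 29 counts per library and the others at most 2. ATM, the kinase activated by broken ends, was at 10.3, 7.11 and 16.1 CPM against 23.1, 15.0 and 13.1 CPM. GPT2si 3 lay above GPT2sinc 2 and 3, and the groups overlapped (-0.61, SE 0.29; edgeR adjusted p = 0.287). The value was -0.33 without GPT2sinc 1, -0.39 without GPT2si 2 and -0.97 without GPT2si 3. ATR and CHEK1, the kinases of stalled forks, were at 0.03 and 0.13 (SE 0.30 and 0.11).

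None of the genes of end sensing and resection had an unadjusted p under 0.05. BLM, a RecQ helicase that acts in resection and junction dissolution, had the highest value, at 6.92, 4.41 and 7.31 CPM with GPT2si and 5.17, 5.40 and 4.55 CPM with GPT2sinc (0.30, SE 0.20). GPT2si 2 was the lowest of the 6 libraries and the other GPT2si libraries the highest. The value was 0.48 without GPT2si 2 and 0.17 without GPT2si 3. RAD50, the coiled-coil subunit of MRN, had the lowest value, at 11.2, 7.06 and 14.9 CPM against 19.3, 12.4 and 11.2 CPM (-0.37, SE 0.28), again with GPT2si 2 lowest. The value of RAD50 was -0.10 without GPT2sinc 1, -0.15 without GPT2si 2 and -0.64 without GPT2si 3. Its partners MRE11 and NBN were at -0.28 and -0.04 (SE 0.20 each), and the helicase gene WRN at -0.06 (SE 0.26). The resection factors RBBP8 and EXO1 were at 0.14 and 0.21 (SE 0.14 and 0.11), and EXO1 was 1 of the 9 genes whose groups did not overlap.

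In the Fanconi core complex FANCE was lower in each GPT2si library, while FANCG, which has a like level, was not. FANCE (ENSG00000112039; chromosome 6, 35452356 to 35467103, plus strand), the subunit that binds FANCD2, was at 63.4, 65.7 and 61.0 CPM in GPT2si 1 to 3 and at 77.6, 81.8 and 83.7 CPM in GPT2sinc 1 to 3. It stood at 78.2% of the GPT2sinc level, with SDs of 2.34 and 3.11 CPM (log2 fold change -0.35, SE 0.08, interval -0.54 to -0.17; edgeR adjusted p = 0.0727). This was the smallest p of the 43 genes. FANCG was at 85.1, 110 and 83.7 CPM against 88.2, 94.4 and 98.2 CPM (-0.01, SE 0.12). GPT2si 1 and 3 lay below each GPT2sinc library, and GPT2si 2 lay above each. The value of FANCG was -0.16 without GPT2si 2 and -0.20 without both GPT2sinc 1 and GPT2si 2. The log2 ratio of FANCE to FANCG was -0.43, -0.74 and -0.46 in GPT2si 1 to 3 and -0.19, -0.21 and -0.23 in GPT2sinc 1 to 3, formed after the values were seen and not tested.

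FANCM, the translocase that anchors the core complex to DNA, had the lowest fold change of the set with few counts, at 0.835, 0.949 and 0.988 CPM against 2.75, 1.31 and 1.03 CPM. All GPT2si libraries lay below, and GPT2sinc 1 stood far above the other 5. GPT2sinc 3 and GPT2si 3 both had 45 counts of FANCM, so their order rests on the scaling alone. The log2 fold change was -0.88 (SE 0.36; edgeR adjusted p = 0.221), and -0.35 without GPT2sinc 1. FANCC had the highest value in the class, at 40.8, 43.7 and 39.7 CPM against 33.8, 37.8 and 38.6 CPM (0.17, SE 0.10), with all GPT2si libraries above. FANCA, FANCB, FANCF, FANCL and UBE2T lay between -0.24 and 0.12. FANCD2, the ubiquitinated clamp subunit, was at 51.7, 41.2 and 49.3 CPM against 45.1, 46.4 and 46.9 CPM (0.04, SE 0.11), and its partner FANCI at 66.9, 50.1 and 66.4 CPM against 63.2, 68.6 and 64.1 CPM (-0.10, SE 0.12). GPT2si 2 was the lowest of the 6 libraries for both.

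Among the nucleases, ERCC1 was at 221, 280 and 217 CPM with GPT2si and 183, 205 and 208 CPM with GPT2sinc (0.27, SE 0.11; edgeR adjusted p = 0.224). All GPT2si libraries lay above, and GPT2si 2 stood apart from the other two. The log2 fold change was 0.13 without GPT2si 2. Of its exon bases 28.6% lie in exons of CD3EAP on the opposite strand, with the same limit as for XRCC3. Opposite-strand overlaps also covered 25.1% of the exon bases of RAD54L (LRRC41, mean 9225 counts), 24.3% of FAN1 (MTMR10) and 23.6% of FANCA (ZNF276). They covered 18.7% of FANCL (VRK2), 16.4% of EME1 (LRRC59, mean 8500 counts) and 13.9% of MUS81 (CFL1, mean 55220 counts). On the same strand, 79.7% of RAD50 lies in exons of AC116366.3 (mean 11.17 counts) and 59.1% of RAD54B in FSBP (mean 58.5 counts), so how reads were split between these genes is uncertain. The ERCC1 partner ERCC4, which holds the active site of XPF, was at 0.03 (SE 0.18). GEN1, a resolvase of Holliday junctions, had the lowest value in the class, at 3.50, 2.87 and 5.47 CPM against 5.51, 3.94 and 4.09 CPM (-0.19, SE 0.25; -0.03 without GPT2sinc 1 or GPT2si 2 and -0.50 without GPT2si 3). The scaffold SLX4, the nuclease FAN1 and the pair MUS81 and EME1 lay between -0.03 and 0.13. POLQ, the polymerase of microhomology-mediated end joining on which recombination-deficient cells depend, was at 4.36, 3.52 and 6.72 CPM against 6.47, 6.26 and 5.35 CPM, with GPT2si 3 the highest of all 6 (-0.31, SE 0.23; -0.14 without GPT2si 2 and -0.61 without GPT2si 3).

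**Figure D3:**
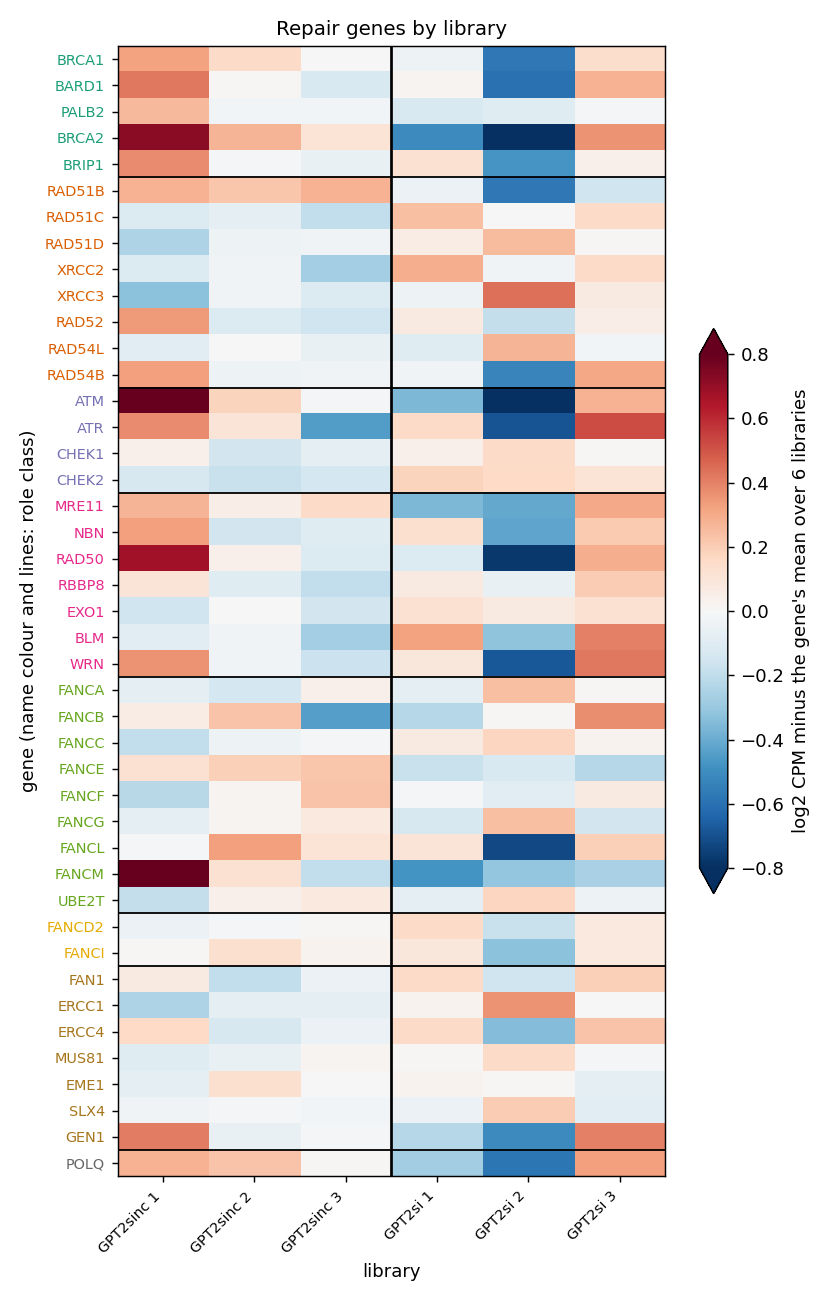
Log2 CPM of the 43 repair genes (rows, by role class) in the 6 libraries (columns), each minus the gene's mean over the libraries; red is higher, blue is lower, and colours saturate at 0.8. GPT2si 2 is the lowest library for 20 of the 43 genes, and the highest for 11; GPT2sinc 1 is the highest for 12 and the lowest for 9.

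Single libraries stood apart for many members, and this went with the base composition of the transcripts, which itself correlated with their length. The GC content of the longest transcript ran from 36.3% for BRCA2 to 63.8% for XRCC3, with a median of 41.9%. For the 22 genes at or below that median, the median log2 CPM centred on the 6 libraries was -0.49 in GPT2si 2, 0.32 in GPT2sinc 1 and 0.28 in GPT2si 3, and between -0.07 and 0.03 in the other 3 libraries. For the 21 genes above it the values stayed between -0.08 and 0.07. All tested genes showed the same order of libraries: the 3638 genes in the lower GC range were at -0.37 in GPT2si 2, 0.20 in GPT2sinc 1 and 0.14 in GPT2si 3. GPT2si 2 was the lowest library for 16 of the 22 AT-richer repair genes, BRCA1, BRCA2, ATM and RAD50 among them, and the highest for 2. Across the 43 genes the centred value correlated with GC at r = 0.70 in GPT2si 2, -0.58 in GPT2si 3 and -0.56 in GPT2sinc 1. These are descriptions over genes that share libraries, and genes are not independent replicates.

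**Figure D4:**
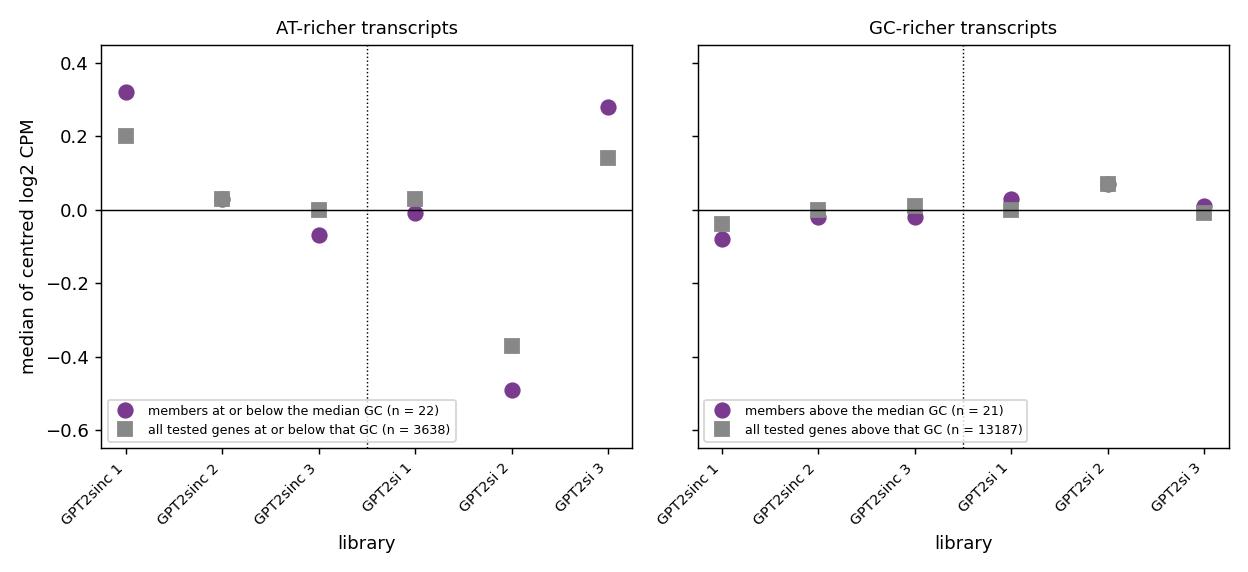
Median of log2 CPM, centred on each gene's mean over the 6 libraries (y axis), per library (x axis), for repair genes (purple circles) and all tested genes (grey squares), split at the median transcript GC of the repair genes. Among the AT-richer genes both sets are lowest in GPT2si 2 (-0.49 and -0.37) and highest in GPT2sinc 1 (0.32 and 0.20); among the others every point lies between -0.08 and 0.07.

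The fold changes carried the same pattern. Their correlation with GC over the 43 genes was r = 0.39 (Spearman 0.43), and with log2 transcript length r = -0.36 (Spearman -0.28). GC and log2 transcript length correlated with each other at r = -0.28, and their separate parts were not tested. Of the 22 AT-richer genes 14 were negative (63.6%, median -0.16), as were 69.7% of all tested genes in that range. Above the median GC 8 of 21 were negative (38.1%), against 47.0% of all tested genes. With offsets for the GC and length trend of each library, the correlation was 0.15 with GC and -0.20 with log2 transcript length. The AT-richer genes then had a median of 0.01, with 9 of 22 negative. Over all genes the share of calls that were higher was 40.7% at first and 64.2% with the offsets. BRCA1 was then at -0.15, BRCA2 at -0.45 and ATM at -0.38, none past the test, while FANCE stayed at -0.36 and CHEK2 at 0.31.

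With these offsets 4 of the 43 genes passed (9.30%), beside 11.6% of 16825 genes. FANCE and RAD51B fell (adjusted p = 0.0112 and 0.0354) and CHEK2 and RAD51C rose (adjusted p = 0.0199 and 0.0273, edgeR with offsets). Without GPT2sinc 1 and GPT2si 2, an alternative chosen after seeing the data, 4 genes passed as well (9.30%, beside 9.19% of all genes): FANCE lower (log2 fold change -0.42, adjusted p = 0.00344) and CHEK2, RAD51C and FAN1 higher (0.30, 0.33 and 0.29; adjusted p = 0.0238, 0.0469 and 0.0381, edgeR). FANCE was also the 1 gene of the 43 past the test without GPT2si 2 alone (edgeR adjusted p = 0.0174, with 4.77% of all genes called) and with upper-quartile scaling (adjusted p = 0.0430, 1.42%). A term for the replicate number called 0 of the 43 (3.28% of all genes), and that term with the offsets called 6 (11.4% of all genes), adding XRCC2 and XRCC3, both higher (edgeR adjusted p = 0.0446 and 0.0378). Over all 16 alternatives the adjusted p from edgeR, DESeq2 or limma ranged from 0.00344 to 0.273 for FANCE and from 0.0199 to 0.368 for CHEK2. It ranged from 0.0354 to 0.382 for RAD51B, from 0.0273 to 0.497 for RAD51C and from 0.0381 to 0.877 for FAN1. For XRCC2 and XRCC3 the ranges were 0.0446 to 0.594 and 0.0378 to 0.622. Over the same alternatives the log2 fold change of FANCE ranged from -0.42 to -0.33 and CHEK2 from 0.25 to 0.32, whereas ATR ranged from -0.26 to 0.49 and RAD50 from -0.64 to 0.13.

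**Figure D5:**
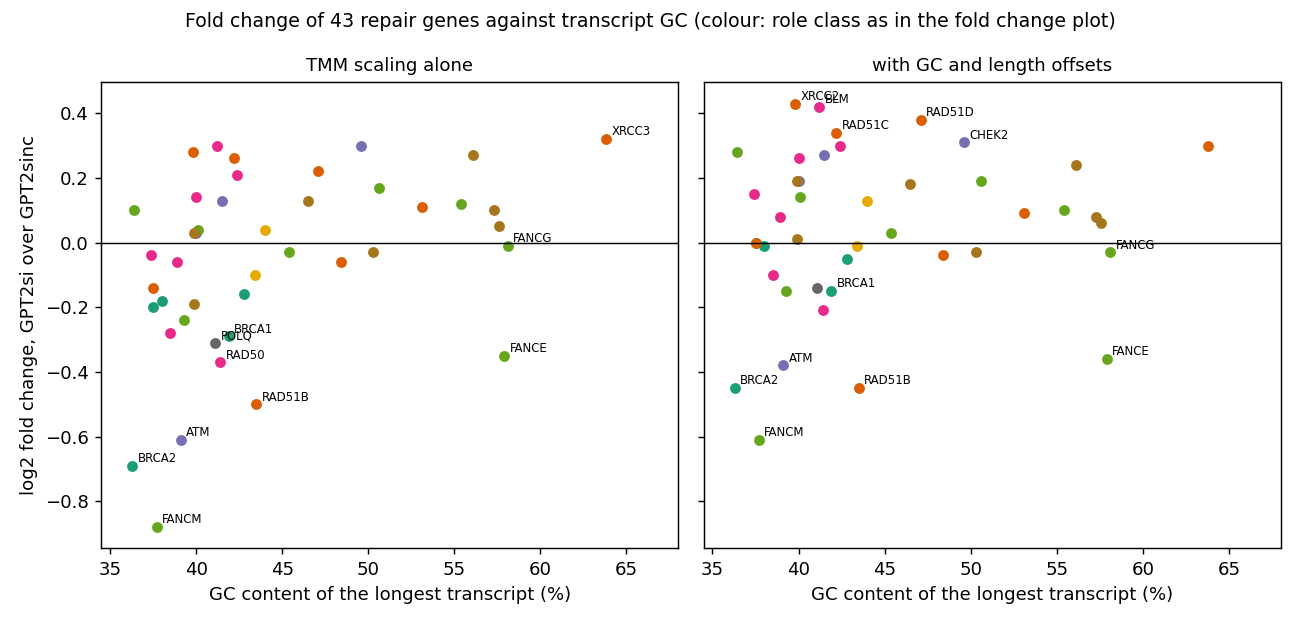
Log2 fold change of the 43 repair genes, GPT2si over GPT2sinc (y axis), against the GC content of the longest transcript in percent (x axis), with TMM scaling alone (left) and with GC and length offsets (right); each point is a gene, coloured by role class. The low points at the AT-rich end, BRCA2, ATM and FANCM, move up from -0.69, -0.61 and -0.88 to -0.45, -0.38 and -0.61, while FANCE stays at -0.35 and -0.36.

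Promoter sequence is shown for the members that passed under at least 1 alternative and with a promoter window at the gene's start in RefSeq (GRCh38.p14), as a view of what lies upstream of genes that leaned opposite ways. RAD51B and CHEK2 also passed under an alternative, but lacked such a window or enough upstream bases outside GENCODE exons, and are not shown. Among the genes shown, FANCE alone was lower. Each stretch of 120 bases is read 5′ to 3′ on the gene's strand and was placed to lie outside every GENCODE exon. Its first base is 120 bases upstream of the RefSeq start for FANCE, RAD51C and FAN1, 144 for XRCC2 and 173 for XRCC3. The RefSeq and GENCODE starts of a gene can differ, as they do for FANCE. Capitals mark the GC box GGGCGG and the CCAAT box on either strand, which were searched with the E2F sites TTTCCCGC and TTTGGCGC and the CHR element TTTGAA.
FANCE (chr6:35452218-35452337, plus strand): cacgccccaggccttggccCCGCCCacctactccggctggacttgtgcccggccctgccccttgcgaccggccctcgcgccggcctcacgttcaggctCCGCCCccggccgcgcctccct
RAD51C (chr17:58692453-58692572, plus strand): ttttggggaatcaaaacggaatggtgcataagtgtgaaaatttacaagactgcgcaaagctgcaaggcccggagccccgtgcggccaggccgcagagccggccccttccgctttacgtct
XRCC2 (chr7:152676166-152676285, minus strand): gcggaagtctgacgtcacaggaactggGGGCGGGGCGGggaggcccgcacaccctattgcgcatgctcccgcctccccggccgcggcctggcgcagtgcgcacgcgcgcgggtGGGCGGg
XRCC3 (chr14:103715505-103715624, minus strand): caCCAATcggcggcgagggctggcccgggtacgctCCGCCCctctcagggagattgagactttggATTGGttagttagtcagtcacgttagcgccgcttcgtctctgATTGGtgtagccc
FAN1 (chr15:30903732-30903851, plus strand): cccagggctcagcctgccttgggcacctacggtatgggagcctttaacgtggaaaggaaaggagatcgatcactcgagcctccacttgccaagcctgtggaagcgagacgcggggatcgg

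FANCE, at -0.35, and XRCC2, at 0.28, both hold GC boxes in these stretches, and RAD51C and FAN1 hold none of the motifs searched. In the 250 bases upstream, 26 of the 39 members with a window held a GC box (66.7%), against 46.2% of 27305 genes. A CCAAT box was in 17 (43.6%, against 37.0%) and TTTGAA in 6 (15.4%, against 16.1%). TTTCCCGC was in FANCC alone (2.56%, against 1.70%), and TTTGGCGC in 0 of 39, against 0.681% of genes. The GC box can overlap other GC-rich motifs, and a match is a description of the letters.

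Other genes of recombination and crosslink repair lay around 0 as well. Of 32 such genes 0 passed in edgeR and in DESeq2, and 2 were called higher with the offsets. The median log2 fold change was 0.04, and before adjustment 5 had p under 0.05 upward and 1 downward. For this and the following lists the shares of all genes were 10.3% upward and 9.27% downward before adjustment, 7.77% called by DESeq2 and 11.6% called with the offsets. The smallest p among them belonged to RFWD3, a ubiquitin ligase that acts on RPA (0.26, SE 0.08), and CENPX, a histone-fold partner of FANCM (0.39, SE 0.14). Of 22 genes of damage signalling 0 passed in edgeR (3 upward and 1 downward unadjusted, median 0.06), and DESeq2 called 1 and the offsets 2 higher, with CDC25A, the phosphatase that checkpoint kinases destroy, at 0.45 (SE 0.10; edgeR adjusted p = 0.0662) and RAD1, of the checkpoint clamp, at 0.37 (SE 0.12).

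The neighbouring repair pathways gave 0 genes past the edgeR test, and the calls of DESeq2 and with offsets lay in 2 of the lists. DESeq2 called 2 genes of base excision repair and 1 of nucleotide excision repair higher, and the offsets 3 and 2. In end joining and the 53BP1 axis 0 of 16 had an unadjusted p under 0.05 upward and 2 downward (median 0.03), namely LIG4 and XRCC4, which seal ends together (-0.69 and -0.41, SE 0.26 and 0.18). In nucleotide excision repair 2 of 18 had one upward and 0 downward (median 0.11), the TFIIH helicases ERCC2 and ERCC3 (0.45 and 0.25, SE 0.13 and 0.09). In mismatch repair all 6 tested genes were negative (median -0.18), with MSH3 at -0.34 (SE 0.15) and PMS2 at -0.18 (SE 0.09). In base excision repair 5 of 20 had one upward and 2 downward (median 0.11), led by the flap nuclease FEN1 (0.46, SE 0.10) and the uracil glycosylase UNG (0.36, SE 0.11), which act in S phase too. Of 9 translesion synthesis genes 0 had an unadjusted p under 0.05 (median -0.28, HLTF at -0.48 and POLI at -0.41, SE 0.23 and 0.21). Of 9 genes of platinum transport and binding 1 did, the metallothionein MT1X (0.44, SE 0.19), ahead of the copper chaperone ATOX1 (0.27, SE 0.14), with a median of 0.09. The transcripts of LIG4, XRCC4, HLTF and POLI had 36.2% to 36.8% GC, within the AT-richer range, and LIG4 had 35 to 101 counts per library. With the offsets their adjusted p ran from 0.102 to 0.434 (edgeR), and the median of the translesion list was -0.14.

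Cell cycle lists are given beside these values, since many repair genes follow the cycle. Of 35 genes of G1/S and S phase 0 passed the adjusted edgeR test and DESeq2 called 6 higher, while 14 had an unadjusted p under 0.05, all of these higher (median 0.19), with MCM7 at 0.50 and PCNA at 0.33 (SE 0.12 and 0.08). Of 40 genes of G2 and mitosis 0 passed in edgeR and DESeq2 called 7 lower, while 17 had an unadjusted p under 0.05, all of these lower (median -0.28), with NUSAP1 at -0.50 and CENPE at -1.19 (SE 0.11 and 0.27). With GC and length offsets 12 of the first list rose and 9 of the second fell, beside 11.6% of all genes called. Of 19 E2F and DREAM regulators 0 passed in edgeR, 4 had an unadjusted p under 0.05 upward (median 0.13), and DESeq2 called 2 and the offsets 4 higher, with E2F1 at 0.45 and E2F4 at 0.33 (SE 0.12 and 0.09). The part of cell cycle phase in the values of the repair genes was not tested.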

How the data were processed

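For 6 libraries of A2780 RNA, grouped by their titles, the authors deposited raw counts, 1 whole number per gene and library. Per the labels' protocols the RNA was poly(A) selected and the libraries kept strand through dUTP. CASAVA and StringTie are named in the submitters' processing notes; aligner, counting settings, genome build and annotation: not given in the sources used here. Symbols came from a gene name table (60295 of 60564 rows). Positions, exon lengths and GC came from GENCODE 29 on GRCh38 (58457 rows matched) and promoters from RefSeq, which held 39 of the 43 genes.

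Groups were compared with edgeR 4.0.16 (R 4.3.3; quasi-likelihood F test, TMM, filterByExpr, group as the only term), adjusted by Benjamini-Hochberg over 17006 genes, threshold 0.05. SEs and 95% intervals come from the F statistic. CPM are scaled by TMM factors and given per library or as mean with SD (n = 3); centred log2 CPM add 0.1. No test was run on the gene lists. The rule names members with an unadjusted p under 0.05, the largest rise and fall per role class, and 2 genes per other list. The members were given by symbol, and no measured value was used to choose them. The other lists are also given by symbol, but were chosen with earlier results of these data known. Alternatives were DESeq2 1.42.0, limma-voom (limma 3.58.1), other scalings and filters, GC and length offsets (loess, span 0.5), a replicate block and libraries left out. The test was checked on simulated data that left out genes with few counts and held no GC or length trend of single libraries. That check does not cover such genes, such a trend or changes as small as those of most members. No pair of libraries agreed within sampling noise (chi-square per degree of freedom at least 8.04). As no label states separate cultures, every p-value rests on the variation among these libraries alone, and this may be technical.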

Additional observations from a re-analysis of the deposited data

How the results depend on the processing

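The counts of calls moved with the processing and with single libraries. Over all genes, 98 higher and 143 lower became 61 and 112 with DESeq2 size factors, 17 and 27 with no low-count filter (28550 genes tested), 596 and 460 with DESeq2, and 1257 and 700 with GC and length offsets. The share of higher calls was 40.7% at first and 64.2% with the offsets. Leaving out 1 library gave 0 to 377 higher and 1 to 459 lower. The highest counts came from omitting GPT2si 2, followed by 51 and 58 when GPT2si 3 was omitted. Omitting GPT2si 1 or any single GPT2sinc library gave 0 to 3 higher and 1 to 4 lower. Without both GPT2sinc 1 and GPT2si 2 the counts were 754 and 825. The cause was not tested.

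For the 43 repair genes, 0 higher and 0 lower became 0 and 1 with upper-quartile factors, 1 and 1 with DESeq2, 2 and 2 with the offsets, and 3 and 1 without both libraries. Leaving out 1 library gave 0 higher and 0 to 1 lower, the 1 being FANCE without GPT2si 2. The titles number the libraries but do not say whether equal numbers belong together. The deviations of same-numbered libraries correlated at 0.10, 0.13 and -0.21, and not every library correlated best with its own number. These correlations cannot decide it, since deviations of single libraries also went with transcript GC. With a replicate block the counts over all genes were 252 and 306, with 0 repair genes called. With the block and the offsets they were 1241 and 670, and 4 repair genes were higher and 2 lower.

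Fold changes that changed sign are all from genes that did not pass. With upper-quartile factors these were ATR at -0.02, UBE2T at -0.01, FANCD2 at 0, ERCC4 at -0.01 and SLX4 at 0. With limma-voom it was ATR at 0, and with the replicate block ATR at -0.02. With the offsets they were BRIP1 at 0, RAD54B at 0, NBN at 0.15, WRN at 0.08, FANCF at 0.03 and GEN1 at 0.01, and with offsets and block BRIP1 at 0, NBN at 0.15, WRN at 0.07 and FANCF at 0.04. Without both GPT2sinc 1 and GPT2si 2 they were BARD1 at 0.20, BRIP1 at 0.11, RAD52 at 0.19, RAD54L at -0.04, RAD54B at 0.18, NBN at 0.29, RAD50 at 0.13, WRN at 0.36, UBE2T at -0.12, SLX4 at -0.06 and GEN1 at 0.15. When 1 library was left out, the log2 fold changes that changed sign ranged as follows: BARD1 -0.38 to 0.01, RAD52 -0.15 to 0.12, RAD54L -0.03 to 0.18, RAD54B -0.36 to 0.04, ATR -0.26 to 0.28, NBN -0.16 to 0.13, WRN -0.31 to 0.18, FANCB -0.10 to 0.26, FANCF -0.14 to 0.09, FANCG -0.16 to 0.06, UBE2T -0.05 to 0.09, FANCD2 -0.03 to 0.12, FANCI -0.17 to 0.02, ERCC4 -0.08 to 0.18, EME1 -0.08 to 0.03 and SLX4 -0.06 to 0.10. BRCA2, FANCB and FANCM, each under 2 CPM in a group, had SEs of 0.35, 0.31 and 0.36, and ATR and ATM, with more counts, had SEs of 0.30 and 0.29; the part of depth in these was not tested.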
